A study of Homo sapiens with 12 samples.

Results

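The genes described are 10 partner subunits of the EP400-TIP60 chromatin complex, the complex that also holds BRD8: EP400, TRRAP, KAT5, EPC1, EPC2, ING3, DMAP1, MRGBP, MEAF6 and YEATS4. They were taken from the table by gene symbol, and all 10 were among the 27814 named genes of the table and among the 16208 genes with enough counts to be tested. Bulk RNA sequencing was done on BT474, an established breast cancer line that carries hormone receptors and an amplified HER2 (ERBB2) gene. The 12 libraries were BRD8 KO cells given 200 nM neratinib for 4 h, BRD8 KO cells in DMSO, parental cells given the same neratinib treatment, and parental cells in DMSO, with 3 libraries per group. Neratinib binds the kinase domains of HER2 and its relatives irreversibly, and DMSO is its solvent. The labels do not say whether the KO cells are a clone or a pool, where BRD8 was edited, or whether the replicates are separate cultures. The p-values therefore measure the spread between these libraries alone, and that spread may be technical.

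The EP400-TIP60 complex joins an ATPase that exchanges histone variants in nucleosomes to an acetyltransferase that modifies histones and other nuclear proteins. EP400 is the ATPase, KAT5 (also called TIP60) is the acetyltransferase, and TRRAP is a very large scaffold that transcription factors such as MYC contact. EPC1 and EPC2 are alternative scaffolds that hold the acetyltransferase with ING3 and MEAF6, while DMAP1, YEATS4, MRGBP and BRD8 belong to other parts of the complex. Several subunits are shared: TRRAP with the SAGA complex, DMAP1 and YEATS4 with the SRCAP complex, and MEAF6 with complexes built on other acetyltransferases of the MYST family.

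The stretches just upstream of the RefSeq start sites are shown for the scaffold genes EPC2 and EPC1, for MEAF6, and for the enzyme genes EP400 and KAT5. All of these but KAT5 passed the test in all 4 pairwise comparisons, as did ING3 and MRGBP, which are not shown. RefSeq promoter windows (GRCh38.p14, 300 bases each) were found for 8 of the 10 members, all but TRRAP and ING3, with 2 windows for EPC1. The windows were searched on both strands for GTAAACA, the core bound by forkhead factors, for CACGTG, the E-box bound by MYC, and for CCGGAAG, the core bound by ETS factors. They were also searched for CCAAT, the box bound by NF-Y, and for TTTGGCGC and its variant TTTCCCGC, forms of the site bound by E2F factors. No matches overlap each other in the sequences shown. Each line gives the 100 bases that end at the RefSeq start, 5′ to 3′ on the strand of the gene, with matches in capitals. They lie at chr2:148644651-148644750 (plus strand, EPC2), chr10:32378770-32378869 and chr10:32347159-32347258 (minus strand, EPC1), chr1:37514767-37514866 (minus strand, MEAF6), chr12:131949842-131949941 (plus strand, EP400) and chr11:65712152-65712251 (plus strand, KAT5).
EPC2: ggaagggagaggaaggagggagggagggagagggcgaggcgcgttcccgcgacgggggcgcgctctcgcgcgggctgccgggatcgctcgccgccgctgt
EPC1, upstream start: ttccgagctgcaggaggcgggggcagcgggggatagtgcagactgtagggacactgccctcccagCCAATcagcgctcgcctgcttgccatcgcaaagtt
EPC1, downstream start: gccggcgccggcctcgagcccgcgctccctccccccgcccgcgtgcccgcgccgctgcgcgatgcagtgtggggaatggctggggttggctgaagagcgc
MEAF6: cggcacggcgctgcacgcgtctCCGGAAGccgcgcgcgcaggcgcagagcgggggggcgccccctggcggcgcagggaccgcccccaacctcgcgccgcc
EP400: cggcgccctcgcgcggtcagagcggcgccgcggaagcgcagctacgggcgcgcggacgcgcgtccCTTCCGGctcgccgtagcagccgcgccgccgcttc
KAT5: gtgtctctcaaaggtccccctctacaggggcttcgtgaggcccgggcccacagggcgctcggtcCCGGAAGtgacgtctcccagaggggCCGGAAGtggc
CCGGAAG occurred in the windows of 4 members, EP400, KAT5, DMAP1 and MEAF6, and in 10.3% of the 35116 windows of this length. CACGTG was found for KAT5 (7.26% of all windows) and CCAAT for EPC1 and DMAP1 (34.6% of all windows). The CACGTG of KAT5 begins 235 bases before the start, outside the stretch shown. GTAAACA matched no member window and 3.42% of all windows. The E2F-type letters matched no member window either, with TTTGGCGC in 0.652% and the form TTTCCCGC in 1.63% of all windows. These are letter matches only, and no binding was measured.

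Each library held 32471198 to 44726160 counts over named genes. The 11 luminal and HER2-amplicon markers summed to 16444 to 18980 CPM (read counts scaled to library size by TMM) per library and none was at 0 in any group. ERBB2 alone averaged 8176.5 to 9137.5 CPM by group, so the sum hides differences of single markers. GATA3 averaged 171.4 CPM in KO neratinib, 249.7 in KO DMSO, 389.3 in parental neratinib and 434.5 in parental DMSO. GRB7 averaged 2943.3, 626.6, 2193.1 and 424.0 CPM in the same order. The 14 markers of other cell types summed to 226.0 to 231.4 CPM in KO neratinib, 153.5 to 163.2 CPM in KO DMSO, 151.1 to 154.7 CPM in parental neratinib and 108.4 to 113.6 CPM in parental DMSO, mostly COL1A1, VIM and VWF. Of these, CD3E had no count in KO DMSO, CD3E and DCN had none in parental neratinib, and CD3E and PTPRC had none in parental DMSO. The part of that sum in the results below was not tested. BRD8 mRNA itself was at 67.4, 66.1 and 68.8 CPM in KO DMSO, against 64.9, 63.5 and 64.1 CPM in parental DMSO. In neratinib it was at 153.3, 158.0 and 157.0 CPM in KO-labelled cells, against 231.9, 241.6 and 233.5 CPM in parental cells. The targeted gene therefore did not have less mRNA in the libraries labelled KO in DMSO, and since an edited gene can keep its mRNA these levels do not check the labels. The cells are called KO-labelled throughout.

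Per kilobase of the longest annotated transcript, KAT5 and MEAF6 had the highest levels among the members in every group. In parental DMSO, MEAF6 was at 34.4 ± 0.312 and KAT5 at 32.5 ± 0.822 CPM per kilobase, followed by YEATS4 at 13.9 ± 0.689, MRGBP at 12.8 ± 0.411 and TRRAP at 10.9 ± 0.309 CPM per kilobase (SD, n = 3). EP400 at 8.11 ± 0.261 and EPC2 at 7.82 ± 0.342 CPM per kilobase overlapped in that group, and ING3 was lowest at 4.604 ± 0.118 CPM per kilobase. In KO-labelled cells the order of the leading pair was turned round, with KAT5 at 33.7 ± 0.259 and MEAF6 at 23.0 ± 0.599 CPM per kilobase in DMSO. EPC2 came after this pair in KO neratinib, KO DMSO and parental neratinib libraries, at 20.6 ± 0.353, 14.04 ± 0.0396 and 14.97 ± 0.156 CPM per kilobase, where in parental neratinib it overlapped with YEATS4. The longest transcript of EPC1 is a retained-intron form and that of DMAP1 a processed form. With the longest coding transcript, a length chosen after seeing the data, DMAP1 was at 13.96 instead of 5.30 and EPC1 at 12.02 instead of 6.60 CPM per kilobase in parental DMSO. By that length EPC2 came next after KAT5 and MEAF6 in KO neratinib alone. DMAP1 was above it in KO DMSO (14.54 against 14.04 CPM per kilobase) and EPC1 in parental neratinib (18.97 against 14.97 CPM per kilobase).

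**Figure D1:**
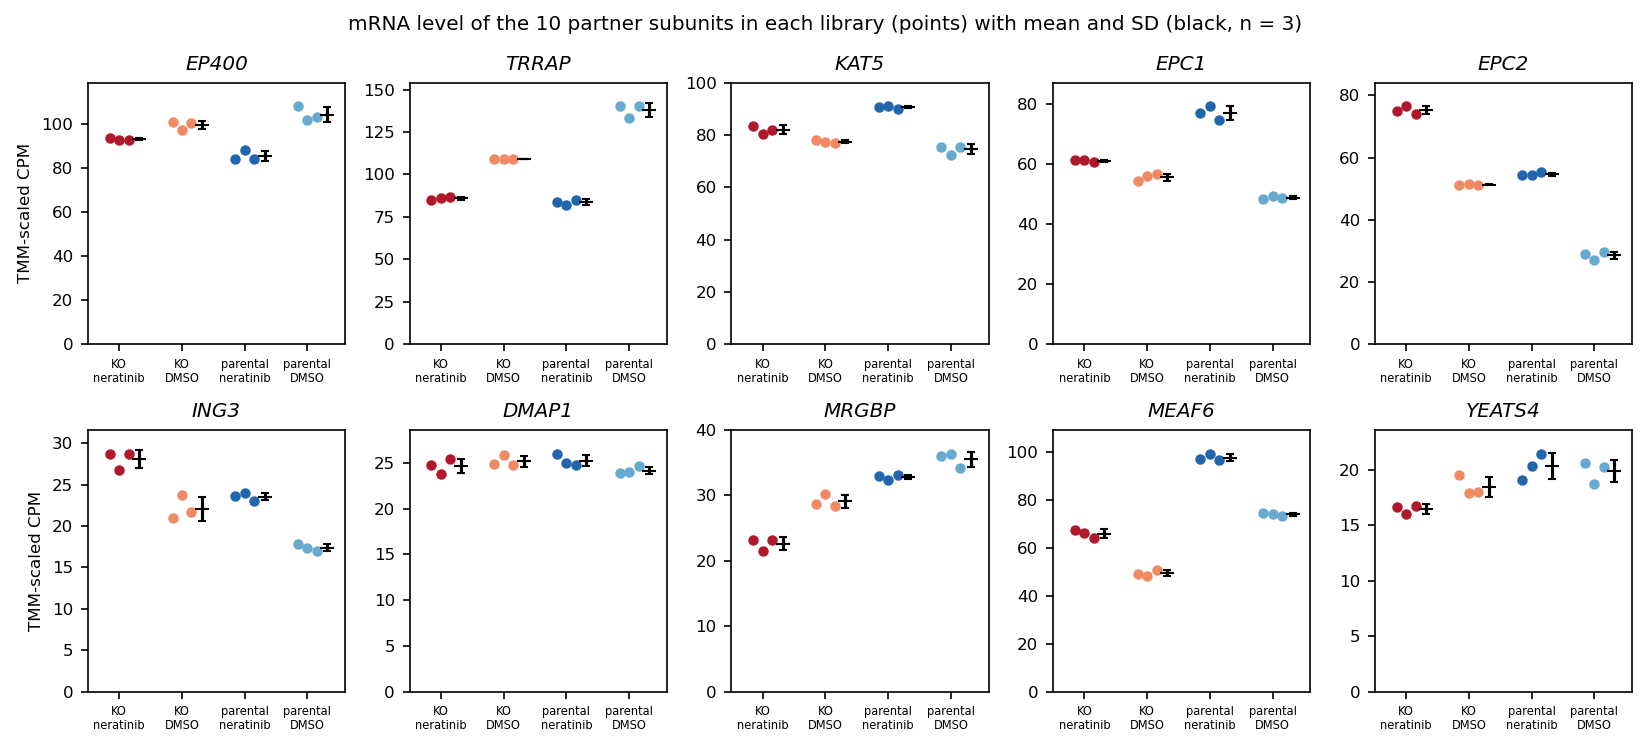
TMM-scaled CPM (vertical axes, from 0) of the 10 subunit genes in each of the 12 libraries (points, 3 per group), with the group mean and SD in black. EPC2 is lowest in parental DMSO and highest in KO neratinib libraries, and MEAF6 is lower in KO-labelled than in parental libraries under either treatment.

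KO-labelled and parental cells were compared in DMSO to ask how the remaining subunits of the complex are expressed in cells labelled as lacking one. EPC2 mRNA was 1.79-fold higher in KO-labelled cells, and ING3 and EPC1 were higher by less, at 1.27-fold and 1.14-fold. MEAF6 was at 0.666 of the parental level, TRRAP at 0.790, MRGBP at 0.820 and EP400 at 0.953. KAT5, DMAP1 and YEATS4 did not pass the test, with log2 fold changes of 0.05, 0.06 and -0.11. Thus 3 members rose and 4 fell (edgeR quasi-likelihood test, Benjamini-Hochberg adjusted p below 0.05 over all genes, here called BH-adjusted). Over all genes tested 71.6% passed, 36% upward and 35.6% downward, so 7 of 10 is near the background. The median log2 fold change was -0.01 over the members, against 0.00219 over all genes tested. Beyond 1.5-fold (edgeR's glmTreat, BH-adjusted) only EPC2 was called, where 15.2% of all genes were. In bulk RNA, fewer cells in a state and less RNA per cell cannot be told apart.

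Under neratinib, the same comparison of genotypes gave 3 higher and 5 lower members, where 71.6% of all genes passed, 34.7% upward and 36.9% downward. EPC2 (1.38-fold), ING3 (1.19-fold) and EP400 (1.09-fold) were higher in KO-labelled cells. MEAF6 was at 0.675, MRGBP at 0.688, EPC1 at 0.793, YEATS4 at 0.812 and KAT5 at 0.904 of the parental level. TRRAP and DMAP1 did not pass, with log2 fold changes of 0.03 and -0.04. The median was -0.09 over the members and -0.02 over all genes tested. None was called beyond 1.5-fold by glmTreat, none had an unadjusted p below 0.05 in that test and DESeq2 called 0 as well, where edgeR called 14.7% of all genes.

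**Figure D2:**
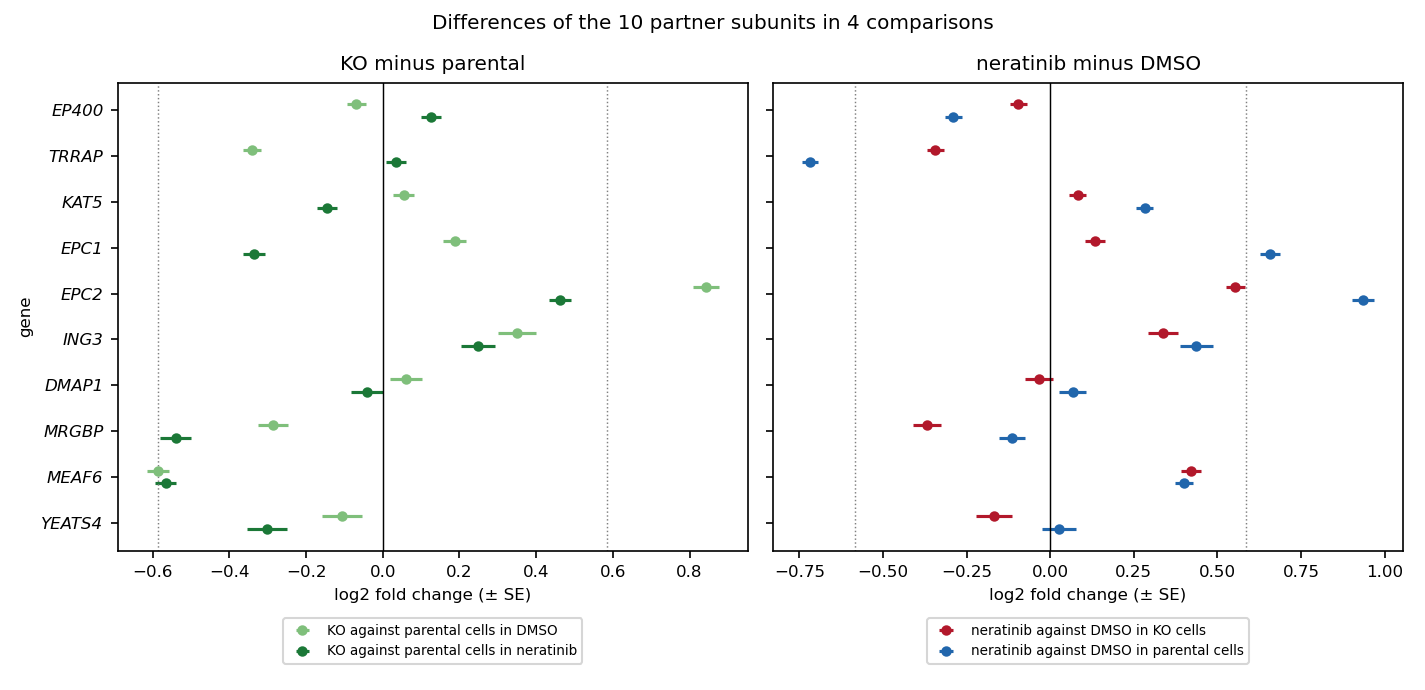
Log2 fold changes with SE (horizontal axes) of each subunit gene, for KO-labelled minus parental cells (left panel, in DMSO and in neratinib) and for neratinib minus DMSO (right panel, in KO-labelled and in parental cells). Dotted lines mark 1.5-fold, and EPC2, EPC1 and TRRAP lie beyond them in the neratinib response of parental cells.

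The neratinib response was measured in each genotype after the same 4 h treatment. In parental cells EPC2 rose 1.91-fold and EPC1 1.58-fold, ING3, MEAF6 and KAT5 rose 1.35-fold, 1.32-fold and 1.22-fold, and TRRAP fell to 0.608, EP400 to 0.818 and MRGBP to 0.924 of the DMSO level. DMAP1 and YEATS4 did not pass, with log2 fold changes of 0.07 and 0.03. With 5 members up and 3 down, 8 of 10 passed, where 80.7% of all genes did, 41.8% upward and 38.9% downward (edgeR quasi-likelihood, BH-adjusted). The median log2 fold change was 0.17 over the members and 0.04 over all genes tested. EPC1, EPC2 and TRRAP were called beyond 1.5-fold by glmTreat, where 31.3% of all genes were.

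In KO-labelled cells EPC2 rose 1.47-fold with neratinib, MEAF6 1.34-fold, ING3 1.26-fold, EPC1 1.098-fold and KAT5 1.06-fold. MRGBP fell to 0.775, TRRAP to 0.788, YEATS4 to 0.890 and EP400 to 0.936 of the DMSO level, and DMAP1 did not pass with a log2 fold change of -0.03. With 5 members up and 4 down, 9 of 10 passed, where 77.2% of all genes did, 38.9% upward and 38.4% downward, and the median was 0.02 for the members as for all genes tested. None was called beyond 1.5-fold by glmTreat, none had an unadjusted p below 0.05 in that test, and DESeq2 called 0, where edgeR called 23.9% of all genes. The count of falls was 2 instead of 4 when library totals alone were used or genes under a mean of 5 CPM were left out, because EP400 and YEATS4 no longer passed.

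The difference between the genotypes' responses was tested as an interaction, taking the log2 response of parental cells away from the log2 response of KO-labelled cells. It was negative for EPC1, EPC2, MRGBP, KAT5 and YEATS4 and positive for TRRAP and EP400, so 7 of 10 members passed, where 46.1% of all genes did, 21.5% upward and 24.6% downward (edgeR quasi-likelihood, BH-adjusted). For 5 of these 7, EPC1, EPC2, KAT5, TRRAP and EP400, the response had the same sign in both genotypes and was smaller in KO-labelled cells. Responses were also smaller there over all genes tested. Their median size, regardless of sign, was 0.40 in KO-labelled and 0.47 in parental cells on the log2 scale. Beyond 1.5-fold, 23.9% and 31.3% of all genes were called. MEAF6, ING3 and DMAP1 did not pass, with differences of 0.02, -0.10 and -0.10. None exceeded 1.5-fold by glmTreat, at an unadjusted p below 0.05 in that test or with DESeq2, where edgeR called 2.17% of all genes. The genotype and neratinib comparisons share libraries, such as the parental DMSO libraries, so they are not independent of each other.

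**Figure D3:**
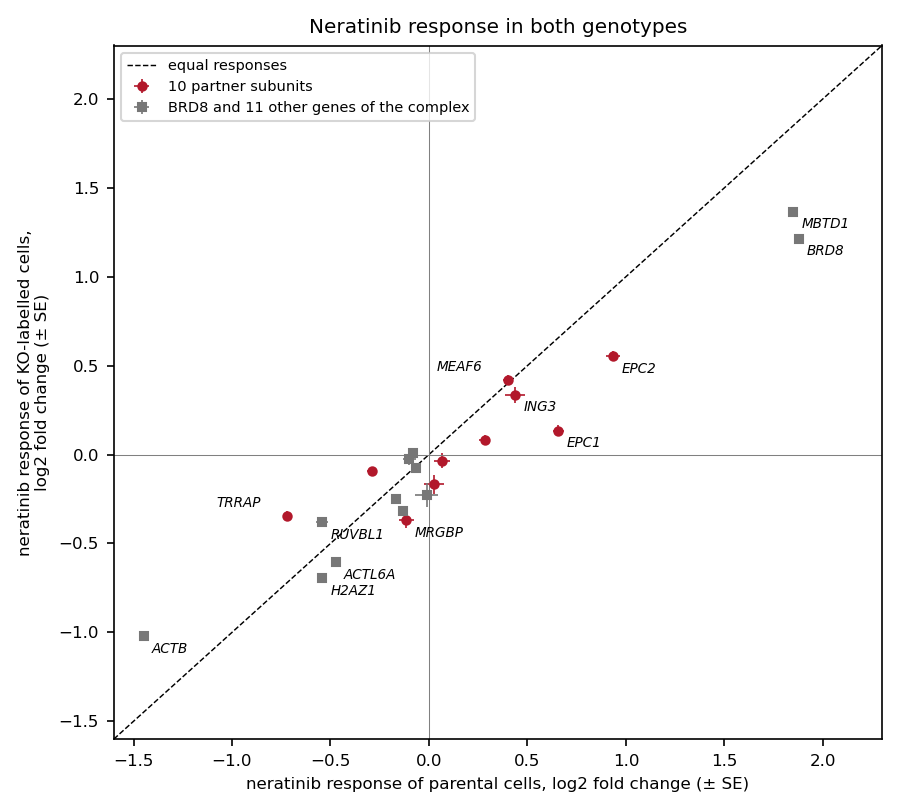
Neratinib response (log2 fold change with SE) of KO-labelled cells (vertical axis) against that of parental cells (horizontal axis) for the 10 partner subunits (red) and for BRD8 and 11 other genes of the complex (grey). The grey genes include H2AZ1 and H2AZ2, which encode the histone substrate H2A.Z and are not subunits. EPC1, at 0.13 and 0.66, lies farthest from the dashed line of equal responses among the partner subunits.

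EPC1 and EPC2, the alternative scaffolds of the acetyltransferase part, had the largest rises with neratinib in parental cells among the 10 members. EPC2 (chromosome 2, 148644440 to 148787568, plus strand, GENCODE 29 on GRCh38) was at 75.0, 76.5 and 74.0 CPM in KO neratinib, 51.1, 51.4 and 51.2 CPM in KO DMSO, 54.3, 54.3 and 55.3 CPM in parental neratinib and 28.99, 27.1 and 29.5 CPM in parental DMSO. No 2 of the groups compared overlapped. The genotype difference was 0.84 (SE 0.034, edgeR quasi-likelihood, BH-adjusted p = 3.68e-25) in DMSO and 0.46 (SE 0.029, BH-adjusted p = 2.74e-18) in neratinib on the log2 scale. In DMSO it was larger in size than the change of 83.9% of the genes tested. The neratinib response was 0.55 (SE 0.030) in KO-labelled and 0.94 (SE 0.034) in parental cells, and the interaction was -0.38 (SE 0.045, edgeR quasi-likelihood, BH-adjusted p = 1.93e-09).

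EPC1 (chromosome 10, 32267751 to 32378798, minus strand) was at 61.1, 61.3 and 60.5 CPM in KO neratinib, 54.3, 55.9 and 56.5 CPM in KO DMSO, 77.0, 79.2 and 74.7 CPM in parental neratinib and 48.4, 49.2 and 48.8 CPM in parental DMSO. KO-labelled cells were thus above parental cells in DMSO and below them in neratinib, with no overlap in either case. KO-labelled minus parental cells gave 0.19 (SE 0.031) in DMSO and -0.33 (SE 0.028) in neratinib on the log2 scale. The neratinib response was 0.13 (SE 0.030) in KO-labelled and 0.66 (SE 0.029) in parental cells, and the interaction of -0.52 (SE 0.042, edgeR quasi-likelihood, BH-adjusted p = 4.06e-14) was the largest in size among the 10 members.

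The ratio of EPC2 to EPC1, both per kilobase of the longest transcript, was 2.48, 2.53 and 2.48 in KO neratinib, 1.91, 1.86 and 1.83 in KO DMSO, 1.43, 1.39 and 1.498 in parental neratinib and 1.21, 1.12 and 1.23 in parental DMSO libraries. The 4 groups did not overlap, and the ratio was higher in KO-labelled than in parental cells and higher in neratinib than in DMSO. Which of the pair is more abundant depends on the transcript length assumed for EPC1. With its longest coding transcript the mean ratios were 1.37, 1.03, 0.790 and 0.651 in the same order of groups. By the longest transcript, the sum of both was 28.9 ± 0.409 CPM per kilobase in KO neratinib, 21.6 ± 0.173 in KO DMSO, 25.4 ± 0.185 in parental neratinib and 14.4 ± 0.304 in parental DMSO (SD, n = 3). By the longest coding transcript the mean sums were 35.6, 27.7, 33.9 and 19.8 CPM per kilobase in the same order, with the genotypes closer in neratinib.

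**Figure D4:**
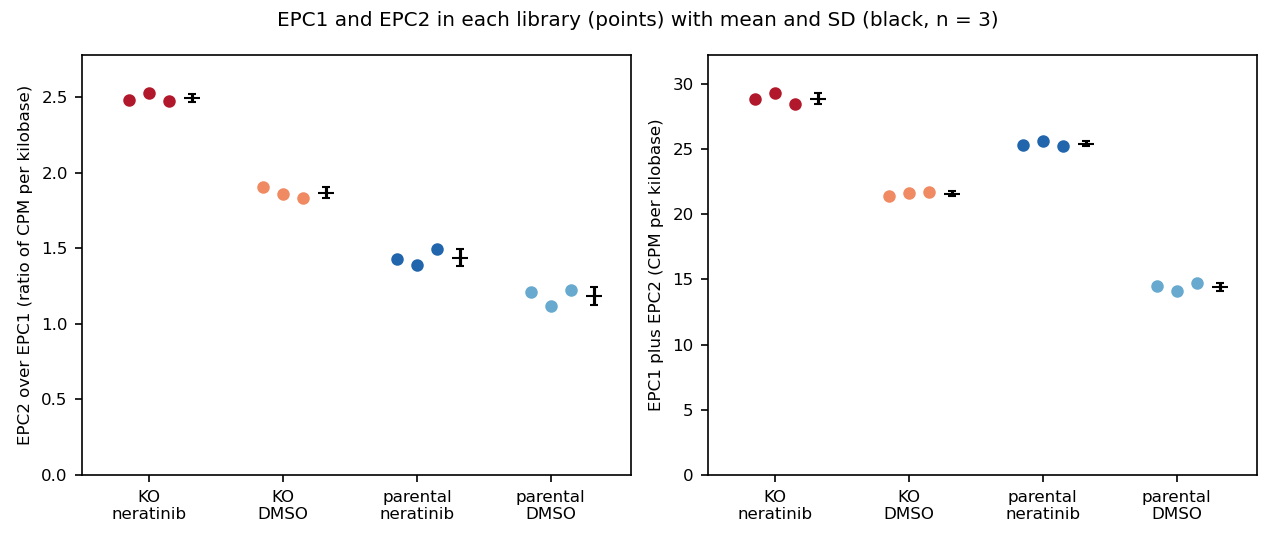
Ratio of EPC2 to EPC1 (left) and their sum (right), both from CPM per kilobase of the longest annotated transcript, in each library (points, 3 per group) with the group mean and SD in black. The ratio is at 2.50 ± 0.0271 in KO neratinib and 1.18 ± 0.0592 in parental DMSO, the groups at either end.

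The large subunits EP400 and TRRAP fell with neratinib, more in parental than in KO-labelled cells. TRRAP (chromosome 7, 98877933 to 99050831, plus strand) was at 85.1, 85.9 and 86.6 CPM in KO neratinib, 109.0, 108.8 and 109.0 CPM in KO DMSO, 83.9, 82.1 and 85.2 CPM in parental neratinib and 140.1, 133.4 and 140.2 CPM in parental DMSO. The genotypes were apart in DMSO (log2 fold change -0.34, SE 0.023, edgeR quasi-likelihood, BH-adjusted p = 4.35e-17) and overlapped in neratinib, where the difference of 0.03 passed with a minimum mean of 5 CPM alone (0.06, BH-adjusted p = 0.0227). TRRAP fell by 0.34 (SE 0.025) in KO-labelled and by 0.72 (SE 0.024) in parental cells on the log2 scale, an interaction of 0.38 (SE 0.035, edgeR quasi-likelihood, BH-adjusted p = 2.56e-12).

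EP400 (chromosome 12, 131949920 to 132081102, plus strand) was at 93.6, 92.7 and 92.8 CPM in KO neratinib, 100.7, 97.3 and 100.3 CPM in KO DMSO, 84.2, 87.9 and 83.9 CPM in parental neratinib and 108.0, 101.6 and 102.9 CPM in parental DMSO. The genotype difference was -0.07 (SE 0.026, edgeR quasi-likelihood, BH-adjusted p = 0.0156) in DMSO and 0.13 (SE 0.027, BH-adjusted p = 5.21e-05) in neratinib. The DMSO call was lost without parental DMSO replicate 1 or KO DMSO replicate 2 (edgeR quasi-likelihood, BH-adjusted p = 0.152 and 0.0969). The neratinib response was -0.09 in KO-labelled and -0.29 in parental cells, with an interaction of 0.19 (SE 0.037, BH-adjusted p = 2.39e-05). Cut into pieces of 50 bases, the read length here, the longest EP400 transcript shared 9.44% of its pieces with other genes on either strand, chiefly the pseudogene EP400P1 and the antisense transcript AC137590.1. EP400P1 was at 2.84 to 3.27, 3.12 to 3.30, 2.55 to 2.99 and 3.80 to 4.13 CPM in the 4 groups in the same order, and reads of the pair cannot be fully separated.

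KAT5, the acetyltransferase (chromosome 11, 65711996 to 65719604, plus strand), was at 83.7, 80.3 and 82.1 CPM in KO neratinib, 78.1, 77.3 and 76.9 CPM in KO DMSO, 90.8, 91.1 and 90.2 CPM in parental neratinib and 75.6, 72.4 and 75.7 CPM in parental DMSO. Levels were higher in neratinib than in DMSO in both genotypes without overlap, by 0.08 (SE 0.026) in KO-labelled and 0.28 (SE 0.026) in parental cells on the log2 scale. The interaction was -0.20 (SE 0.037, edgeR quasi-likelihood, BH-adjusted p = 1.70e-05). The rise in KO-labelled cells was not called without KO DMSO replicate 3 or with no filter on low counts (edgeR quasi-likelihood, BH-adjusted p = 0.0698 and 0.205). KO-labelled minus parental cells gave 0.05 (SE 0.027, BH-adjusted p = 0.066) in DMSO, a difference that was called with library totals alone and with a minimum mean of 5 CPM (edgeR quasi-likelihood, BH-adjusted p = 0.0282 and 0.00767). In neratinib it was -0.15 (SE 0.026, BH-adjusted p = 3.11e-06). KAT5 shared 40.0% of its 50-base pieces with RNASEH2C on the opposite strand. RNASEH2C, a subunit of a ribonuclease, fell with neratinib by 0.12 in KO-labelled and by 0.22 in parental cells, and KAT5 rose in both. Between genotypes RNASEH2C was lower in KO-labelled cells by 0.36 in DMSO and by 0.26 in neratinib, where KAT5 was at 0.05 and -0.15. The part of RNASEH2C reads in the KAT5 values was not tested. Reads of the library kit used carry no strand, so reads from the shared stretch cannot be assigned to either gene. The strand setting of the counting was not given in the sources used here.

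Among the smaller subunits, MEAF6 and MRGBP were lower and ING3 was higher in KO-labelled cells under either treatment. MEAF6, which sits beside the acetyltransferase (chromosome 1, 37492575 to 37514774, minus strand), was at 67.5, 66.2 and 63.9 CPM in KO neratinib, 49.1, 48.1 and 50.7 CPM in KO DMSO, 97.1, 99.1 and 96.5 CPM in parental neratinib and 74.6, 73.9 and 73.2 CPM in parental DMSO. No 2 of the groups compared overlapped. The genotype difference was -0.59 (SE 0.029, edgeR quasi-likelihood, BH-adjusted p = 6.15e-22) in DMSO and -0.57 (SE 0.027, BH-adjusted p = 1.63e-22) in neratinib. The neratinib response was 0.42 (SE 0.030) in KO-labelled and 0.40 (SE 0.027) in parental cells, and their difference of 0.02 (SE 0.040) did not pass (BH-adjusted p = 0.722).

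MRGBP, which binds the chromodomain protein MORF4L1 (chromosome 20, 62796453 to 62801738, plus strand), was at 23.2, 21.5 and 23.2 CPM in KO neratinib, 28.7, 30.2 and 28.4 CPM in KO DMSO, 33.0, 32.4 and 33.1 CPM in parental neratinib and 36.0, 36.4 and 34.2 CPM in parental DMSO. The groups compared did not overlap. KO-labelled minus parental cells gave -0.29 (SE 0.038) in DMSO and -0.54 (SE 0.041, edgeR quasi-likelihood, BH-adjusted p = 1.18e-15) in neratinib, and the interaction was -0.25 (SE 0.056, BH-adjusted p = 0.000226). MRGBP fell with neratinib by 0.37 in KO-labelled and by 0.11 in parental cells on the log2 scale. The fall in parental cells was not called with library totals alone or with a minimum mean of 5 CPM (edgeR quasi-likelihood, BH-adjusted p = 0.400 and 0.170). The antisense gene OGFR-AS1 shared 14.8% of the 50-base pieces of MRGBP.

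ING3, whose PHD finger binds methylated histone H3 (chromosome 7, 120950749 to 120977216, plus strand), was at 28.6, 26.8 and 28.7 CPM in KO neratinib, 20.9, 23.7 and 21.7 CPM in KO DMSO, 23.6, 23.99 and 23.1 CPM in parental neratinib and 17.8, 17.4 and 17.0 CPM in parental DMSO. It was higher in KO-labelled cells by 0.35 (SE 0.049) in DMSO and by 0.25 (SE 0.045) in neratinib, and higher with neratinib by 0.34 (SE 0.045) in KO-labelled and by 0.44 (SE 0.048) in parental cells. The groups of each of these comparisons did not overlap, and all 4 passed (edgeR quasi-likelihood, BH-adjusted p of at most 3.82e-06).

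DMAP1, a subunit shared with SRCAP (chromosome 1, 44213455 to 44220681, plus strand), differed least and stayed between 23.8 and 26.0 CPM in all 12 libraries. Its log2 fold changes ran from -0.04 to 0.07 in the 4 pairwise comparisons, with SE of 0.041 to 0.042. Its neratinib response in parental cells, 0.07, did not pass (edgeR quasi-likelihood, BH-adjusted p = 0.134) but was 0.15 with library totals alone and 0.13 with a minimum mean of 5 CPM, where it passed (BH-adjusted p = 0.0019 and 0.00488).

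YEATS4, whose YEATS domain binds acetylated histone H3 (chromosome 12, 69359703 to 69390796, plus strand), was at 16.7, 16.0 and 16.7 CPM in KO neratinib, 19.5, 17.9 and 18.0 CPM in KO DMSO, 19.1, 20.4 and 21.5 CPM in parental neratinib and 20.6, 18.8 and 20.3 CPM in parental DMSO. KO neratinib libraries lay below all others. The genotype difference was -0.30 (SE 0.052, edgeR quasi-likelihood, BH-adjusted p = 2.22e-06) in neratinib, and -0.11 (SE 0.051, BH-adjusted p = 0.0607) in DMSO, where the groups overlapped. The DMSO difference was called without parental DMSO replicate 2 or KO DMSO replicate 1 (-0.15 and -0.16, BH-adjusted p = 0.0184 and 0.0106), without parental neratinib replicate 1 or 3 (BH-adjusted p = 0.0325 and 0.0341), and with DESeq2-style size factors (BH-adjusted p = 0.0323, edgeR quasi-likelihood throughout). The fall with neratinib in KO-labelled cells (-0.17, SE 0.053, BH-adjusted p = 0.00426) was not called without KO DMSO replicate 1 (BH-adjusted p = 0.0622). The interaction of -0.19 (SE 0.073, edgeR quasi-likelihood, BH-adjusted p = 0.0264) was not called with DESeq2 (BH-adjusted p = 0.109) or DESeq2-style size factors (-0.17, BH-adjusted p = 0.0501), nor without parental DMSO replicate 2 or 3, KO DMSO replicate 1, parental neratinib replicate 3 or KO neratinib replicate 2 (edgeR quasi-likelihood, BH-adjusted p = 0.0947, 0.0514, 0.170, 0.168 and 0.0781).

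The other 12 genes listed with the complex include H2AZ1 and H2AZ2, which encode its histone substrate H2A.Z and are not subunits. Of these 12, BRD8 and MBTD1, which has malignant brain tumour repeats that bind methylated histones, rose most with neratinib. BRD8 rose by 1.21 (SE 0.024) in KO-labelled and by 1.88 (SE 0.024) in parental cells, and MBTD1 by 1.37 (SE 0.026) and by 1.85 (SE 0.027). Both responses were smaller in KO-labelled cells, with interactions of -0.66 (SE 0.034) for BRD8 and -0.48 (SE 0.038) for MBTD1 (edgeR quasi-likelihood, BH-adjusted p = 3.00e-20 and 3.08e-14). Actin beta, ACTB, fell by 1.02 in KO-labelled and by 1.45 in parental cells, and the histone variant gene H2AZ1 by 0.70 and by 0.54. ACTL6A, an actin-related subunit, fell by 0.61 and by 0.47, and the helicase gene RUVBL1 by 0.38 and by 0.54, in KO-labelled and in parental cells. Over these 12 genes, which count BRD8, the ATPases RUVBL1 and RUVBL2, MORF4L1, MORF4L2, VPS72, H2AZ2 and the H2A.Z chaperone ANP32E besides those named, 2 rose and 8 fell in KO-labelled cells, where 38.9% of all genes rose and 38.4% fell, and 2 rose and 9 fell in parental cells, where 41.8% rose and 38.9% fell. With library totals alone or with a minimum mean of 5 CPM, 3 rose and 7 fell in KO-labelled cells, as MORF4L2 was no longer called and RUVBL2 was called higher, and 2 rose and 6 fell in parental cells, as RUVBL2, VPS72 and MORF4L2 were no longer called. In the main test the median responses were -0.24 and -0.12, against 0.02 and 0.04 over all genes tested.

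Between genotypes in DMSO, 6 of the same 12 genes rose and 5 fell, where 36% of all genes rose and 35.6% fell, with the ends at MBTD1 (0.32, SE 0.031) and ANP32E (-0.34, SE 0.060). BRD8 (0.07), RUVBL2 (0.12), H2AZ1 (0.12), H2AZ2 (0.17) and MORF4L1 (0.05) were the other rises, and MORF4L2 (-0.24), VPS72 (-0.27), ACTB (-0.13) and ACTL6A (-0.11) the other falls. The BRD8 call was lost with DESeq2 (BH-adjusted p = 0.106), with DESeq2-style size factors (edgeR quasi-likelihood, BH-adjusted p = 0.0648) and without any of 6 single libraries, as was that of MORF4L1 with DESeq2 (BH-adjusted p = 0.0511) and without KO DMSO replicate 1 (edgeR quasi-likelihood, BH-adjusted p = 0.118). In neratinib 3 rose and 6 fell, where 34.7% of all genes rose and 36.9% fell, and BRD8 at -0.59 and ANP32E at -0.56 were the largest falls. Pieces of VPS72 (40.3%) and MORF4L1 (26.5%) were shared chiefly with TMOD4 and with the pseudogene MORF4L1P1, so their counts are uncertain.

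The complexes that share subunits with EP400-TIP60 were set beside it. The SRCAP list, 9 genes of which 6 are also EP400-TIP60 genes, had 3 rises and 3 falls between genotypes in DMSO and 3 rises and 5 falls in neratinib, where 71.6% of all genes passed in each case, with medians of -0.06 and -0.13. The falls in DMSO were 5 with DESeq2-style size factors and without parental neratinib replicate 1 or 3. SRCAP itself, the ATPase, was higher in KO-labelled cells by 0.27 in DMSO and by 0.18 in neratinib, and the actin-related gene ACTR6 lower by 0.22 and by 0.63 on the log2 scale. With neratinib, 5 of 9 fell in KO-labelled cells and the other 4 did not pass, and in parental cells 5 fell and 1 rose, the rise being ACTR6 (0.44, SE 0.044). Over all genes 77.2% passed in KO-labelled and 80.7% in parental cells. With library totals alone or with a minimum mean of 5 CPM, 1 rose and 4 fell in KO-labelled cells, and 3 rose and 2 fell in parental cells, so the balance of rises and falls in parental cells depends on these settings.

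The SAGA list, TRRAP and 20 other genes, had 2 rises and 13 falls between genotypes in DMSO and 3 rises and 11 falls in neratinib, with medians of -0.14 and -0.16 (edgeR quasi-likelihood, BH-adjusted). Over all genes 36% rose and 35.6% fell in DMSO, and 34.7% rose and 36.9% fell in neratinib, with medians of 0.00219 and -0.02. TAF9 (-0.93, SE 0.043) and TAF6L (-0.90, SE 0.062) fell most in DMSO, and USP22, the deubiquitinase of SAGA, was highest at 0.49 (SE 0.018). With neratinib 5 rose and 14 fell in KO-labelled cells, and 5 rose and 10 fell in parental cells, where 77.2% and 80.7% of all genes passed. In parental cells 8 rose and 9 fell with library totals alone, and 7 rose and 9 fell with a minimum mean of 5 CPM. In the main test ATXN7L3 fell with neratinib by 1.02 in KO-labelled and by 0.82 in parental cells. The acetyltransferase gene KAT2B rose by 1.01 (SE 0.103) in KO-labelled and by 0.40 (SE 0.116) in parental cells.

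The list of other MYST complexes, MEAF6 and 20 other genes, had 9 rises and 9 falls between genotypes in DMSO and 8 of each in neratinib, where 71.6% of all genes passed in each case, with medians of -0.02 and -0.05. The falls in DMSO were 6 with library totals alone, with a minimum mean of 5 CPM and without parental DMSO replicate 2. KAT8 (0.50) and KAT6A (0.37) were the largest rises in DMSO, and JADE2 (-0.63, SE 0.048) and MEAF6 the largest falls. With neratinib, 11 rose and 7 fell in KO-labelled cells, and 10 rose and 9 fell in parental cells, where 77.2% and 80.7% of all genes passed, with ING4 highest at 0.84 and 1.32 and MSL1 lowest at -0.93 and -0.94.

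Each member was set beside the 10 nearest tested protein-coding genes on each side of it, to show whether it moved with its stretch of chromosome or apart from it. Around EPC2, 14 of 20 neighbours had higher and 6 lower estimates in KO-labelled cells in DMSO, with a median of 0.41, where EPC2 was at 0.84. Around ING3 15 of 20 were higher, with a median of 0.31, where ING3 was at 0.35. In contrast, the neighbours of MEAF6 had a median of 0.00 with 10 higher and 10 lower, where MEAF6 was at -0.59. Around TRRAP 6 were higher and 14 lower, with a median of -0.06, where TRRAP was at -0.34. For the neratinib response of parental cells the neighbours of EPC2 and ING3 had medians of 0.45 and 0.40, and those of EPC1 a median of -0.21, where EPC1 was at 0.66. Those of EP400 were at -0.46, where EP400 was at -0.29. Around TRRAP 4 neighbours had higher and 16 lower estimates in this response, with a median of -0.22, where TRRAP was at -0.72.

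**Figure D5:**
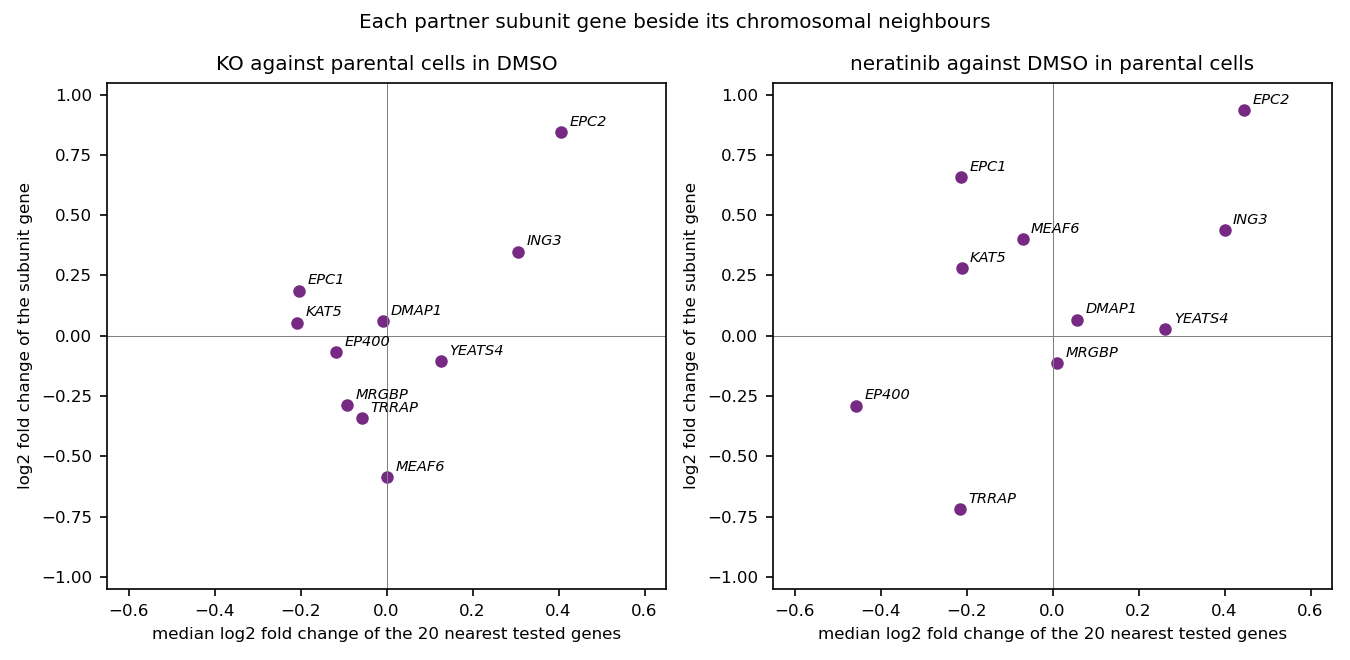
Log2 fold change of each subunit gene (vertical axis) against the median log2 fold change of the 20 nearest tested protein-coding genes (horizontal axis), for KO-labelled against parental cells in DMSO (left) and neratinib against DMSO in parental cells (right). EPC2 and ING3 lie with raised neighbourhoods in both panels, while MEAF6 lies near 0 on the horizontal axis at left.

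The members also differed in how alike their levels were over the 12 libraries, which fall into 4 groups and share depth and scaling. KAT5 and EPC1 had a Pearson r of 0.97 on the log2 scale, as had EPC2 and ING3, and MRGBP and YEATS4 had an r of 0.86. EP400 ran against KAT5 (r = -0.93) and EPC1 (r = -0.96). Among 11102 genes with a mean of at least 5 CPM, those most like EP400 were KTN1 (r = 0.985), CLSPN (r = 0.978) and SPIRE1 (r = 0.976), and those most like KAT5 were OARD1 (r = 0.987), DAZAP2 (r = 0.986) and TMPRSS3 (r = 0.985). KTN1, for example, averaged 141.7 ± 2.58 CPM in KO neratinib, 149.8 ± 3.46 in KO DMSO, 129.7 ± 2.37 in parental neratinib and 153.6 ± 3.38 CPM in parental DMSO (SD, n = 3).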

How the data were processed

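The authors deposited whole-number read counts per gene, unnormalized. Per the submitters' processing notes, FastQC 0.11.7, STAR 2.7.9, edgeR 3.40.2 and the GRCh38 (hg38) genome were used; strand setting, annotation and counting tool: not given in the sources used here. Per the labels' protocols, the library kit was TruSeq RNA v2, whose reads carry no strand, and libraries were read as single reads of 50 bases. Of 28395 lines, 581 had no symbol (0.0877% to 0.124% of a library's counts) and were left out. Counts were filtered with filterByExpr, scaled by TMM and fitted with a mean per group over all 12 libraries (edgeR 4.0.16, R 4.3.3, quasi-likelihood, 8 residual degrees of freedom; called at an adjusted p below 0.05). SE were derived from the F statistic. Libraries of a group varied little (common biological coefficient of variation 1.86%), so small differences pass. DESeq2 1.42.0 and other settings were alternatives. Steps were tested on simulated counts. The named genes were all members, BRD8, all other complex genes, the 2 largest called rises and falls of each related list (a selection is printed), and the 3 genes most like EP400 and KAT5; the neighbours, member correlations and overlapping genes were given for description. Members and lists were chosen with earlier results of these data known.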

Additional observations from a re-analysis of the deposited data

Results flagged for a closer look

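For 7 partner subunits the neratinib response differed between the genotypes by the interaction test (edgeR quasi-likelihood, Benjamini-Hochberg adjusted over all genes, of which 46.1% passed), given as the log2 response in KO-labelled cells less the log2 response in parental cells. The difference was -0.52 for EPC1, -0.38 for EPC2, -0.25 for MRGBP, -0.20 for KAT5 and -0.19 for YEATS4, and it was 0.38 for TRRAP and 0.19 for EP400. The call for YEATS4 was lost with DESeq2 (adjusted p = 0.109), with DESeq2-style size factors (edgeR quasi-likelihood, adjusted p = 0.0501) and without any of 5 single libraries.

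The same test passed for 9 of the other 12 genes listed with the complex. The difference was -0.66 for BRD8, -0.48 for MBTD1, -0.22 for ANP32E, -0.19 for H2AZ2, -0.15 for H2AZ1, -0.13 for ACTL6A and -0.084 for MORF4L1, and it was 0.43 for ACTB and 0.16 for RUVBL1. The call for ANP32E was lost with DESeq2 (adjusted p = 0.142), with DESeq2-style size factors (edgeR quasi-likelihood, adjusted p = 0.0663) and without any of 9 single libraries, and that for MORF4L1 with DESeq2 (adjusted p = 0.0598), with DESeq2-style size factors (edgeR quasi-likelihood, adjusted p = 0.0550) and without any of 4 single libraries. RUVBL2, at 0.09, did not pass (edgeR quasi-likelihood, adjusted p = 0.0506) but was called with DESeq2 (adjusted p = 0.0357). It was also called with DESeq2-style size factors and with a minimum mean of 5 CPM (edgeR quasi-likelihood, adjusted p = 0.0142 and 0.0307), and without some single libraries. Groups of 3 libraries are too small for a test of single libraries that stand apart.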

How the results depend on the processing

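Of 50 member fold changes, 37 kept their direction and their side of the threshold under every alternative run, 19 for each pairwise comparison and 18 for the interaction, which a fit of only 2 groups cannot give. These were DESeq2-style size factors, library totals alone, other filters on low counts, DESeq2, a fit of only the groups compared, the replicate block and leaving out each library. The count of members that fell with neratinib in KO-labelled cells was 2 instead of 4 with library totals alone and 2 with a minimum mean of 5 CPM. With the longest coding transcript, chosen after seeing the data, the EPC2 to EPC1 ratio was 1.37 in KO neratinib, 1.03 in KO DMSO, 0.790 in parental neratinib and 0.651 in parental DMSO. Fold changes that reversed were not called under the alternative. With library totals alone these were, for neratinib in KO-labelled cells, DMAP1 (0.021) and VPS72 (0.032), for neratinib in parental cells MORF4L2 (0.012) and ANP32E (0.068), and for the interaction MEAF6 (-0.0042). With a minimum mean of 5 CPM they were DMAP1 (0.030) and VPS72 (0.042) in KO-labelled cells, ANP32E (0.048) in parental cells and H2AZ2 between genotypes in neratinib (0.013). With no filter they were RUVBL2 in KO-labelled cells (-0.029) and YEATS4 in parental cells (-0.0041). The interaction of MORF4L2 was 0.015 with DESeq2-style size factors and 0.015 with DESeq2. Leaving out 1 library at a time gave -0.029 to 0.062 for YEATS4 with neratinib in parental cells, -0.019 to 0.026 for the interaction of MORF4L2, -0.011 to 0.024 for RUVBL2 with neratinib in KO-labelled cells and -0.031 to 0.0044 for H2AZ2 between genotypes in neratinib. The cause was not tested. EP400 between genotypes in DMSO was not called with a minimum mean of 5 CPM (adjusted p = 0.101). Library totals alone moved the median of all genes by at most 0.08. Same-numbered libraries did not deviate together (r from -0.02 to 0.04 over 18 pairs, and 6 of 12 libraries correlated best with their own number). With the replicate number as a block, 7, 8, 9, 8 and 7 members were called in the 5 comparisons, as without it. At 3 libraries a group, and with replicates of unstated origin, small differences rest on the spread between these libraries.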
